A study of Mus musculus with 6 samples.

Results

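Cytosolic ribosomal protein genes (RP genes) were followed across the leukocytes of the arthritic mouse joint. They were taken as every symbol of the gene table that starts with Rpl or Rps and a digit, or with Rplp, leaving out the S6 kinase symbols (Rps6k) and symbols with -ps. The rule used names and no measured value, and it gave 85 of 20394 genes, with 52 large subunit (60S) symbols and 33 small subunit (40S) symbols. Of these, 76 were core subunit genes, 8 were paralogs or copies (Rpl3l, Rpl6l, Rpl7l1, Rpl22l1, Rpl36al, Rpl39l, Rps27l and Rps27rt), and 1, Rps19bp1, encodes a protein that binds RPS19 and is not a subunit. Symbols left out were 10 kinase symbols and 15 -ps symbols, the latter with 73820 unique molecular identifiers (UMIs, each the tag of 1 captured RNA molecule), or 0.132% of the RP count. The pattern misses some genes of the ribosome by name, among them Rpsa (1940 counts per 1000000 UMIs, CPM), Fau (2748 CPM) and Gnb2l1, also called Rack1 (974 CPM).

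The cells were CD45+ synovial cells of C57BL/6 mice with antigen-induced arthritis (AIA), bought as males at 8 weeks of age, immunized with methylated bovine serum albumin and challenged with it in the knee on day 21. The mice received either PBS, the vehicle (2 samples), or 300 µg of the peptide PEPITEM (4 samples), and joints were taken on day 3 after the challenge. All mice of both groups had arthritis, and unchallenged joints were not analysed here. The authors deposited 1 table of 32953 cells whose barcodes end in a number from 1 to 6, and no source used here ties these numbers to a sample, so PBS and PEPITEM were not compared. Each number is called a library below, and its treatment is not known.

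Ribosomal proteins are made in equal numbers, 1 copy of most for each ribosome, and their mRNAs are among the most abundant of a growing cell. Most of these mRNAs begin with a terminal oligopyrimidine (TOP) tract, a short stretch of C and T at the cap through which the mTORC1 kinase pathway sets their translation together with that of elongation factors. Dividing precursors make many ribosomes, whereas the neutrophil is known to leave the marrow as a short-lived cell with little new protein synthesis.

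The starts of 5 members are shown because, among core genes, their parts of the RP pool were the most enlarged (the first 3) or reduced (the last 2) in mature neutrophil-like cells. Each window runs from 20 bases before the annotated start to 10 bases from it, on the strand of the gene, and capitals mark a run of at least 5 C or T that comes within 5 bases of the start.
Rps9: gtccaaccgccttgTCTCTCTTTgtctcgg
Rps27: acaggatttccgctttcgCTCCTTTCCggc
Rpl37: gaagtagtttcctgggcggaagcttatcca
Rpl10a: gcgtggtggcgCCCCCCCagcggccgcaaa
Rpl12: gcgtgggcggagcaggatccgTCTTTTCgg
These windows lie at chr7:3704021-3704050 (plus strand, Rps9), chr3:90213639-90213668 (minus strand, Rps27), chr15:5116593-5116622 (plus strand, Rpl37), chr17:28328451-28328480 (plus strand, Rpl10a) and chr2:32961692-32961721 (plus strand, Rpl12), and they come from RefSeq on GRCm38.p6. Such a run was present in 35 of the 64 members with a RefSeq start (54.7%) and in 33.0% of the starts of the other 13783 genes of the table that had one. A run that covered the annotated first base was present in 29.7% of the members and in 9.05% of the other genes. Among the 5 members shown, Rpl37 had no run, and the members with runs included both directions. The search read only the strand of the gene, and a match is not a mapped TOP tract. GENCODE gene models put the first base of Rps9 at 3703993, Rps27 at 90213651, Rpl37 at 5116645 and Rpl12 at 32961559 on the same chromosomes. These are other bases than in RefSeq, so the windows depend on the annotation.

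RP genes supplied 56024973 of 486548899 UMIs, or 11.5% (exact binomial 95% interval 11.51 to 11.52%, which covers counting error only). The 6 libraries held 11.3, 12.9, 10.8, 11.2, 11.3 and 11.2%, with depths of 47273569 to 123367661 UMIs. Library 2 was the highest, and the other 5 lay within 10.8 to 11.3%. In single cells the share ran from 0.138% to 44.6%, with a median of 9.17%. Because each captured molecule is counted once at its 3′ end, CPM was read as a share of molecules and was not divided by transcript length. The member with the highest level was Rps29, at 3489 CPM, followed by Rps24 at 2655 CPM and Rpl41 at 2603 CPM. The 10 highest members also included Rps27a, a fusion of ubiquitin and a 40S protein, at 2455 CPM, Rpl37a (2356 CPM), Rps9 (2353 CPM), Rpl23 (2260 CPM), the stalk protein gene Rplp1 (2073 CPM) and Rpl35a (2069 CPM), and together these 10 carried 21.6% of the RP count. Of the 85 members, 60 were above 1000 CPM, 51 stood among the 100 highest genes of the table, and 79 had a UMI in more than 50% of the cells. The median core gene lay at 1536 CPM and the lowest, Rpl15, at 366 CPM.

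Not all members can be counted equally well. Of the 85 members, 53 shared more than 50% of the 31-base words in the last 300 bases of their reference transcript with another annotated gene, mostly a processed pseudogene. Rps27 shared 100% of these words with Rps27rt, Rpl6l shared 100% with Rpl6, Rpl12 shared 100% with Gm10275, and Rpl10a shared 87.8% with Rpl10a-ps1, whereas Rpl37, Rplp0 and Rps3 shared 0%. Rps9 shared 46.3%, all of it with Gm5905. Levels of the members that share their ends are therefore uncertain. Comparisons of 1 member between classes or libraries use the same counting in each, but whether shared ends altered them was not tested.

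Cells were sorted into 27 classes by marker genes that are not members, and 25946 cells (78.7%) fell into exactly 1 class, 6588 into none and 419 into several. A class is named here for its markers ("-like") only. The cells came from digested joints. Whether cells of a class lay in the synovium or in marrow was not tested, so tissue and stage cannot be told apart between classes. Of the classes, 24 held at least 50 cells, and antibody-secreting-like (46 cells), basophil-like (31 cells) and erythroid-like (20 cells) classes held fewer. Although the sort was for CD45, the fibroblast-like class held 101 cells. Its gate required that a cell had no UMI of Ptprc, the CD45 gene. Barcodes found in more than 1 library numbered 138 (276 cells), and leaving these cells out moved none of 21 ratios between classes by more than 0.547%.

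The RP share spanned a wide range between classes, from granulocyte precursor-like cells at the top to neutrophil-like cells at the bottom. Granulocyte precursor-like cells, which carry Mpo and Elane, gave 25.5% of their UMIs to RP genes, and stem and progenitor-like cells gave 24.2%. T-like cells followed with 21.0%, type 2 innate lymphoid-like cells with 19.7%, cycling pre-B-like cells with 17.5% and NK-like cells with 17.4%. Type 1 and type 2 dendritic-like cells (17% each), cycling monocyte or macrophage-like cells (16.9%), pro-B-like cells (16.5%), B-like cells (15.5%), classical monocyte-like cells (15.5%) and plasmacytoid dendritic-like cells (15%) formed a dense middle. In most of these neighbouring pairs the ranges of the libraries overlapped, so their order was not separated. Classical and cycling monocyte-like cells, for example, overlapped in range although 6 of 6 libraries held the lower share in the classical class.

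Lower shares were measured in small pre-B-like cells (13%), fibroblast-like cells (10.4%), inflammatory macrophage-like cells (9.17%) and resident macrophage-like cells (7.99%). Mast-like cells, a type filled with granule protease mRNA, held 6.60%, with libraries from 4.97 to 9.19%. All 3 classes of neutrophil-like cells without cycle genes lay at or under 3.01% in each library, and no other class of at least 50 cells had a library below 4.97%. Cells in no class or in several held 12.7%.

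**Figure D1:**
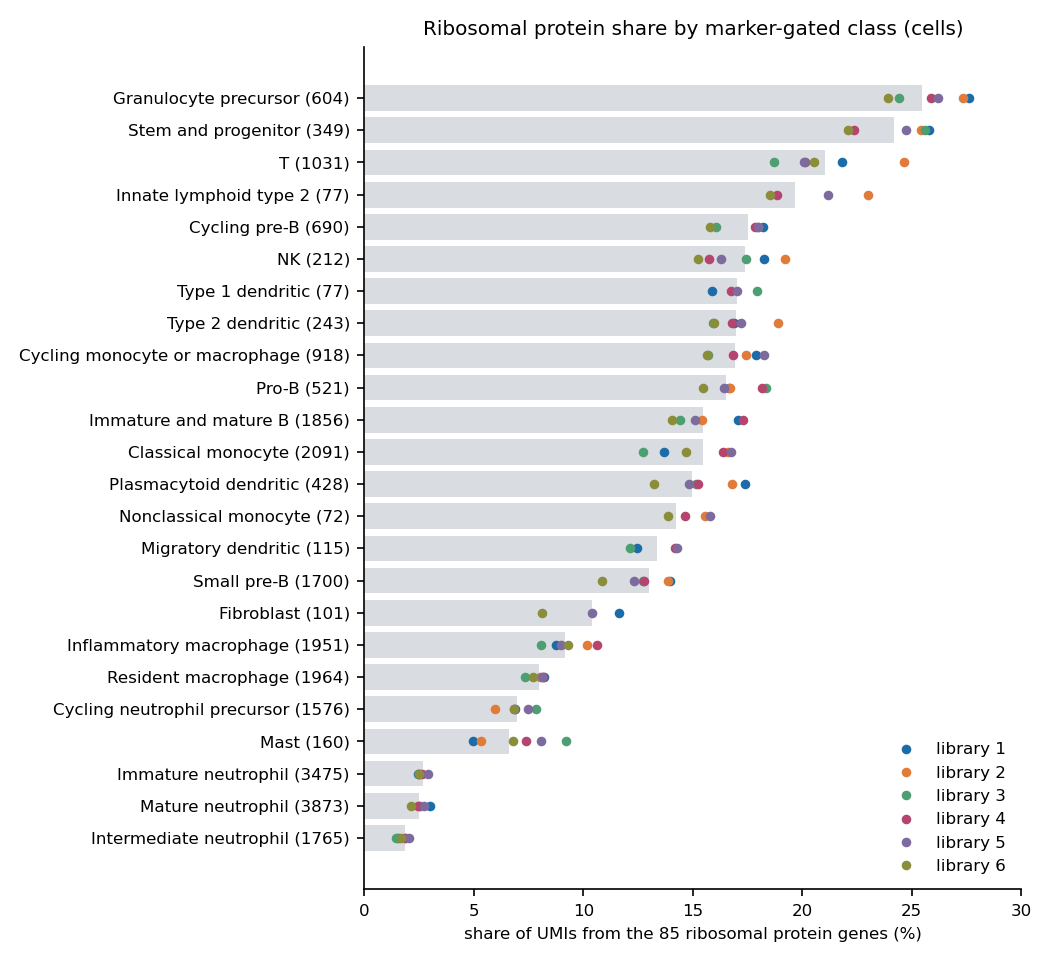
Share of UMIs from the 85 RP genes (x axis, %) in each marker-gated class of at least 50 cells, with the number of cells in parentheses; bars are pooled values and points are libraries with at least 10 cells of the class. Granulocyte precursor-like cells reach 25.5% and the 3 neutrophil-like classes without cycle genes stay at or under 2.66% pooled and 3.01% in each library.

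Along the granulocyte classes the RP share was lower at each of the first 2 steps, and the RP count per cell was lower still. The classes were ordered by markers, from granulocyte precursor-like cells (primary granule genes Mpo, Elane, Prtn3 and Ctsg) to cycling neutrophil precursor-like cells and immature neutrophil-like cells (secondary granule genes Ngp, Camp, Ltf and Lcn2), and to mature neutrophil-like cells with few granule UMIs. In libraries 1 to 6, granulocyte precursor-like cells held 27.6, 27.4, 24.4, 25.9, 26.2 and 23.9% RP UMIs. Cycling neutrophil precursor-like cells held 6.88, 5.98, 7.83, 6.84, 7.46 and 6.84%. Immature neutrophil-like cells held 2.45, 2.49, 2.48, 2.62, 2.90 and 2.49%. The ranges of these 3 classes did not overlap. Pooled, the first step was 3.66-fold (3.12 to 4.57 in the libraries) and the second 2.61-fold (2.40 to 3.16), and both were in the same direction in 6 of 6 libraries.

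The next step was not of this kind. Mature neutrophil-like cells held 3.01, 2.54, 2.47, 2.45, 2.72 and 2.13% in libraries 1 to 6, and 2.51% pooled (95% interval 2.50 to 2.52%, counting error only), against 2.66% in immature neutrophil-like cells. The ratio of mature to immature was 0.94, and it was below 1 in 4 libraries and above 1 in 2, so the ranges overlapped. Cells between both gates, with 5 to 30 granule UMIs per 1000, were kept as an intermediate class that was added after the markers had been seen. They held 1.55, 1.87, 1.44, 1.84, 2.05 and 1.68%, lower than both neighbours in 6 of 6 libraries. Split more finely by granule UMIs per 1000, with the highest granule load taken as the earliest stage, the share was 3.09% (over 90), 2.37% (60 to 90), 1.94% (30 to 60), 1.85% (5 to 30), 2.12% (1 to 5), 2.89% (0 to 1) and 3.20% (0). The share was thus lowest in the middle of this order.

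Other abundant genes moved with these shares. S100a8 and S100a9, the calprotectin genes, alone took 1.09% of the UMIs of granulocyte precursor-like cells, 27.4% in cycling neutrophil precursor-like cells, 32.7% in immature, 28.9% in intermediate and 17.2% in mature neutrophil-like cells. With all 145 marker genes left out of the totals, the RP shares of the 5 classes were 26.6, 11.3, 4.76, 2.86 and 3.18%, and the mature to immature ratio was 0.67 in place of 0.94. The intermediate class was again the lowest, but the mature class stood 1.11-fold above it in place of 1.36-fold. With these totals the finer split, from the highest granule load to 0, gave 5.8, 4.09, 3.2, 2.86, 2.85, 3.46 and 3.67%, so that the ends of the order were further apart.

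RP molecules per cell gave a steadier order. The median RP count per cell was 9235 UMIs in granulocyte precursor-like cells, 1676.5 in cycling neutrophil precursor-like cells, 273 in immature, 118 in intermediate and 101 in mature neutrophil-like cells. In the libraries the mature class ran from 90.5 to 134.5 RP UMIs per cell and the immature class from 240 to 330, without overlap. From first to last the RP count per cell was 91.4-fold lower and the RP share 10.1-fold lower, since the median total count per cell also went from 35957.5 to 4372 UMIs. Fewer RNA molecules per cell and a lower capture of them cannot be told apart in these counts.

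**Figure D2:**
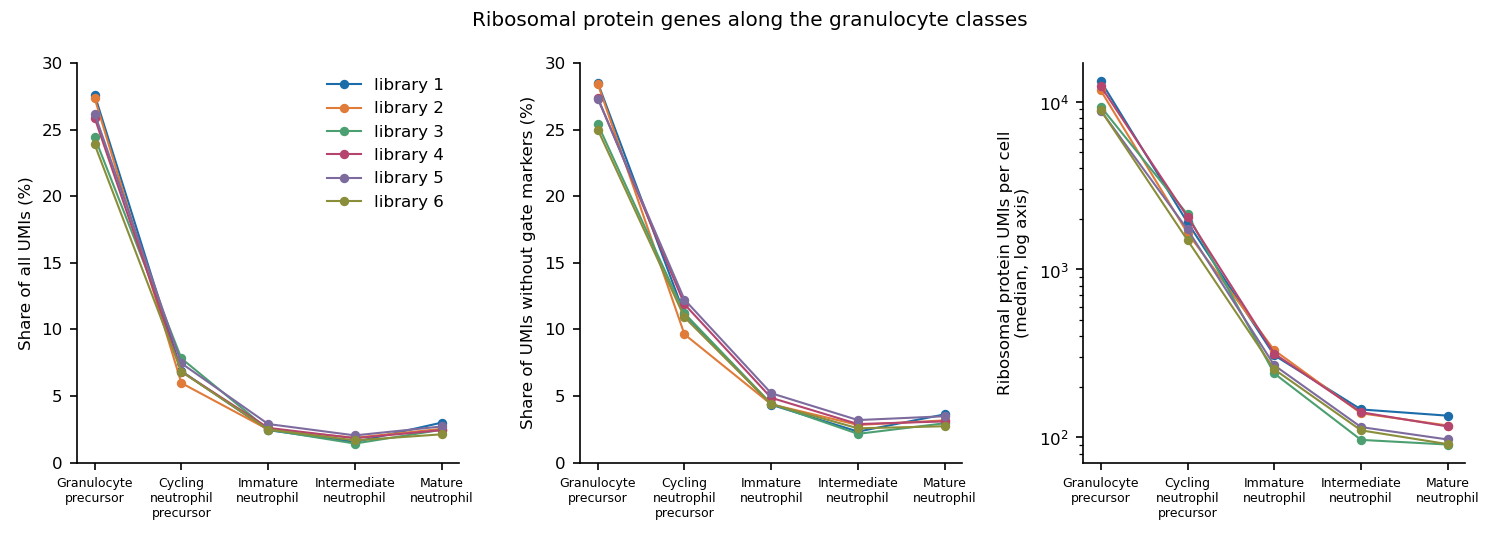
RP share of all UMIs (left, %), RP share with the gate markers left out of the total (middle, %) and median RP UMIs per cell on a log axis (right) in the 5 granulocyte classes, with 1 line for each library. In each library the RP count per cell goes from 8841 or more to 134.5 UMIs or less, while the share of all UMIs is lowest in the intermediate class.

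Every member tested took part in the first step. Of 85 members, 83 passed the minimum of 10 CPM over both classes, and 83 of 83 were at least 1.5-fold lower in cycling neutrophil precursor-like cells than in granulocyte precursor-like cells, in a comparison where 50.3% of all 7625 genes were that much lower. The median member was at -1.92 on the log2(CPM + 1) scale and the median of all genes at -0.60. The largest differences were in Rpl14 (2482 to 415 CPM), Rps2 (4166 to 706 CPM), Rpl12 (2889 to 497 CPM), Rplp1 (4972 to 899 CPM) and Rpl3 (2585 to 483 CPM). Smallest was Rps9, a 40S protein of the mRNA entry side, from 3645 to 1664 CPM (log2 -1.13).

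In the second step, from cycling to immature, 77 of 81 members were at least 1.5-fold lower, beside 37.6% of all genes. The 4 others were Rps27a (1849 to 1246 CPM), Rps27 (724 to 511 CPM), Rps9 (1664 to 1387 CPM) and Rps27rt (21.8 to 18 CPM), and the first 3 were still lower in 6 of 6 libraries. At the other end, Rpl10a (510 to 71.6 CPM), Rpl3 (483 to 68.0 CPM), Rpl36a (435 to 63.2 CPM) and Rpl12 (497 to 77.8 CPM) were all more than 6-fold lower. The same step thus spanned from 1.2-fold to 7.03-fold within 1 family.

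From immature to mature neutrophil-like cells the members split. At least 1.5-fold lower were 21 of 82 members, beside 18.5% of all genes, and 4 were at least 1.5-fold higher, beside 32.9% of all genes. With the marker genes left out of the totals the split was 56 lower and 2 higher. Marker genes held 44.1% of the UMIs of the immature and 20.9% of the mature class. These totals thus lowered the ratios of members and other genes alike. The share of all genes under them was not counted, so 56 and 2 are not a result about the members. Rps20 (282 to 112 CPM), Rpl22l1 (70.8 to 27.7 CPM), Rpl36al (78.6 to 33.6 CPM), Rps24 (729 to 351 CPM) and Rpl32 (313 to 150 CPM) differed most, and were lower in 6 of 6 libraries each. Higher were Rpl37 (606 to 1069 CPM), Rps27 (511 to 935 CPM), Rps27rt (18 to 42.5 CPM) and Rpl3l (6.48 to 17.6 CPM), also in 6 of 6 libraries each. Rps9 went from 1387 to 1969 CPM, higher in 6 of 6 libraries but under the fold used.

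**Figure D3:**
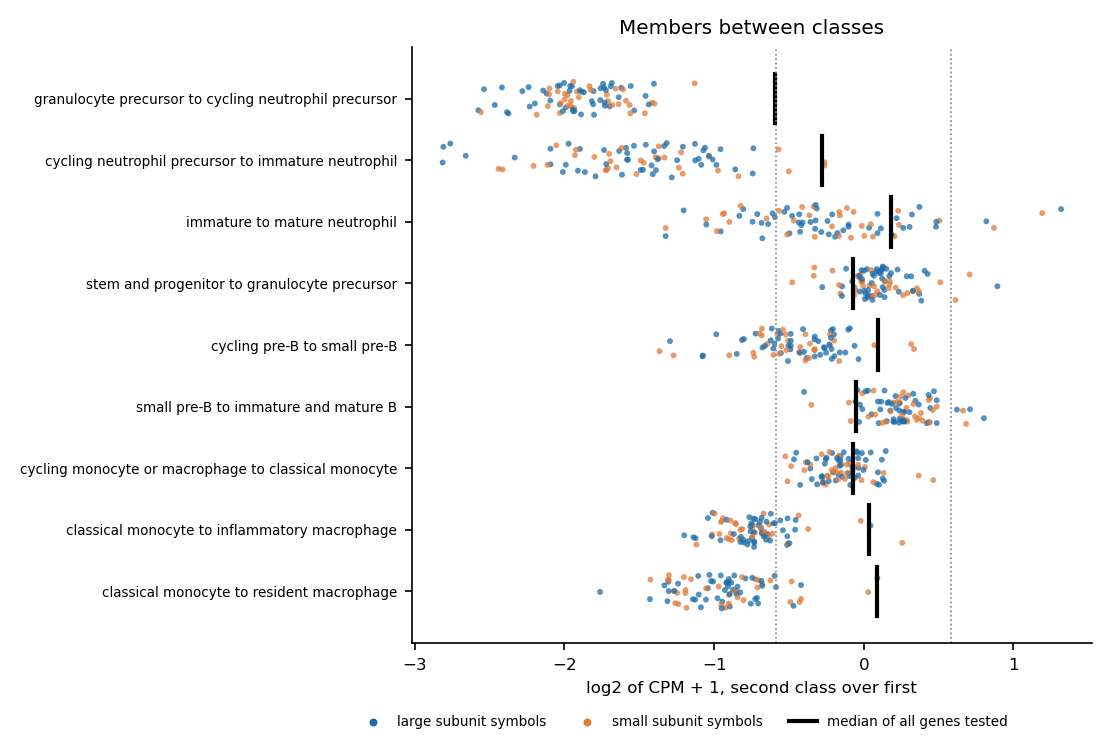
Each point is 1 RP gene that passed 10 CPM, at its log2 ratio of CPM + 1 between the classes named on the y axis (second over first), with large subunit symbols in blue and small subunit symbols in orange. Black bars are the median of all genes tested and dotted lines mark 1.5-fold; in the first comparison all 83 points lie beyond the lower line, and in the third they spread over both sides of 0.

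Within the RP pool, Rps9 had a far larger part in neutrophil-like cells than in their precursors. In libraries 1 to 6, Rps9 took 1.192, 1.319, 1.303, 1.268, 1.497 and 1.464% of the RP UMIs of granulocyte precursor-like cells. In mature neutrophil-like cells it took 5.90, 7.20, 5.91, 7.65, 8.38 and 8.95%. No library of the second class came near the first, and the pooled share of 7.84% (95% interval 7.76 to 7.91%, counting error only) was 5.47 times that of the precursor class. Immature neutrophil-like cells lay between, at 3.98 to 5.43%. Intermediate neutrophil-like cells were close to the mature class, with 18866 of 243294 RP UMIs from Rps9, beside 36699 of 468257 in the mature class. In the other classes of at least 50 cells Rps9 went down to 1.23% in fibroblast-like cells. The RP pool was smaller in the mature class, and Rps9 itself stood at 3645 CPM in the precursor class and at 1969 CPM in the mature class.

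Rps27a, Rps27, Rpl37 and Rpl17 also had larger parts. Rps27a took 1.87 to 2.18% of RP UMIs in granulocyte precursor-like cells, 6.79 to 7.56% in the intermediate class and 4.39 to 6.36% in the mature class. Rps27 went from 0.663 to 1.03% in the precursor class to 3.27 to 4.29% in the mature class, and Rpl37 from 1.42 to 1.68% to 3.85 to 4.56%. Rpl17 took 1.18 to 1.31% in the former and 2.34 to 2.82% in the latter. None of these ranges overlapped between both classes. In all, 14 members had at least 1.5 times their precursor share in the mature class, and 34 had at least 1.5 times less. These counts had no minimum level. The 14 include Rpl3l, Rps27rt and Rpl39l, the last with 7 UMIs in the precursor class and 13 in the mature class. The parts add up to 100%, so larger parts of some members lower those of others.

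The members with smaller parts were led by Rpl10a (uL1, a protein of the L1 stalk), Rpl12 (uL11, at the base of the P stalk) and Rpl3 (uL3, at the peptidyl transferase centre). Rpl10a took 0.972 to 1.07% of RP UMIs in granulocyte precursor-like cells and 0.115 to 0.296% in mature neutrophil-like cells, a pooled 6.21-fold decrease in share. Rpl12 was at 0.991 to 1.197% and then 0.157 to 0.388% (5.2-fold), and Rpl3 at 0.929 to 1.04% and then 0.152 to 0.337% (4.71-fold). Rps20 followed with 2.02% and 0.446% pooled, Rps18 with 1.61% and 0.357%, and Rpl32 with 2.16% and 0.598%. Resident macrophage-like cells, which also had a low RP share, had Rpl3 at 0.903% and Rpl10a at 0.709% of their RP UMIs pooled. Over the 76 core genes, log2 transcript length and the log2 change in share had a Pearson r of -0.17 (Spearman's rho -0.15), a description across genes that share libraries and cells.

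**Figure D4:**
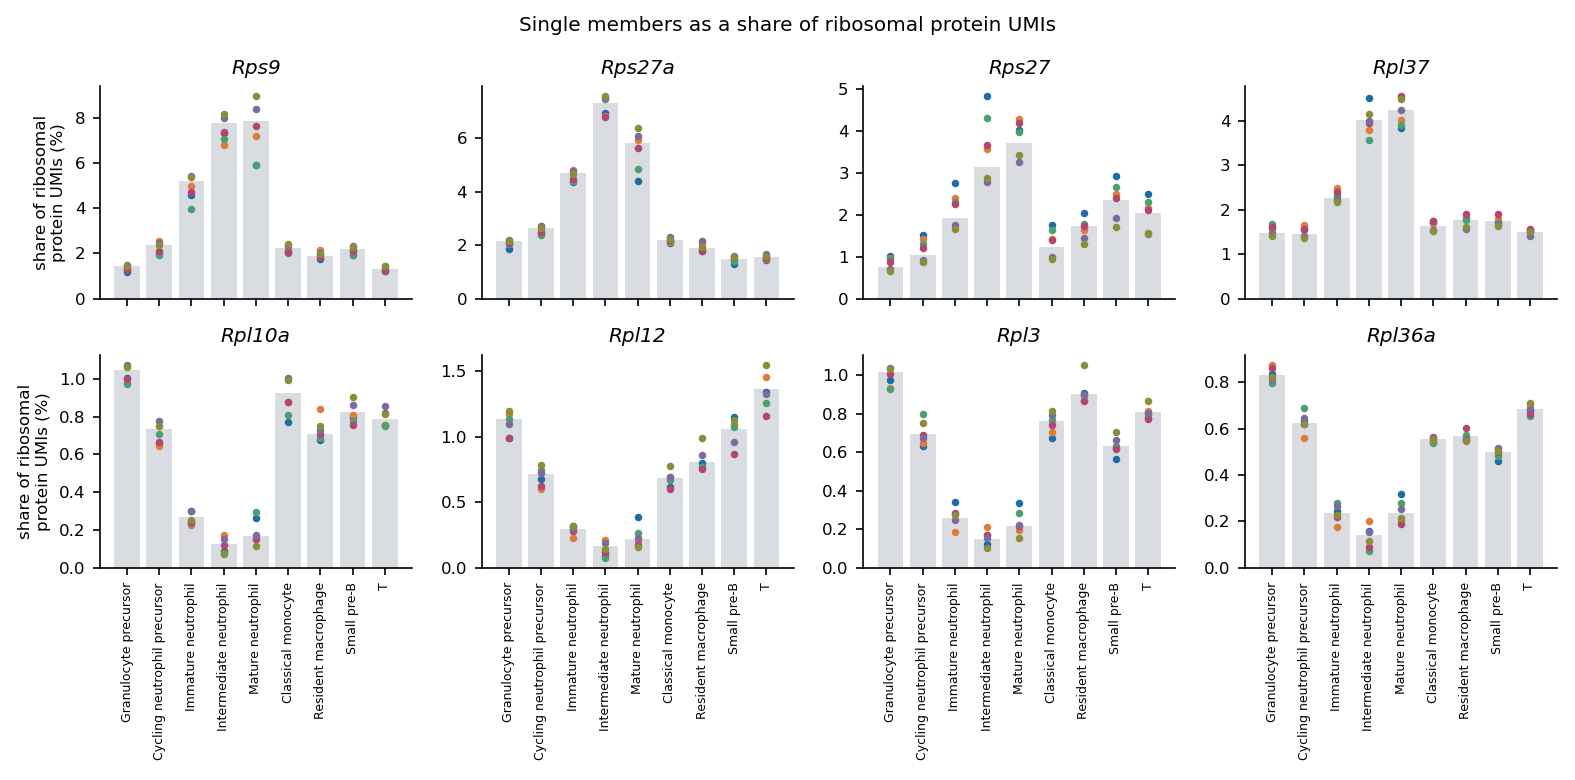
Share of RP UMIs (y axis, %) held by 4 members whose part is larger (upper row) and 4 whose part is smaller (lower row) in neutrophil-like cells, over 9 classes; bars are pooled values and points are the 6 libraries, in the library colours of the class plot. Rps9 stands at 7.84% in mature neutrophil-like cells and at 1.43% in granulocyte precursor-like cells, while Rpl10a goes from 1.05 to 0.169%.

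Genes beside a member on the chromosome were read for the members whose part grew. Rpl3l ends 498 bases before Msrb1, a selenoprotein gene on the same strand (chr17:24736642-24742778), and both were higher in later classes. Rpl3l was at 1.17, 2.304, 6.48, 11.8 and 17.6 CPM and Msrb1 at 389, 511, 744, 1349 and 1810 CPM in the 5 classes from precursor to mature. Whether Msrb1 molecules were counted as Rpl3l was not tested. Pirb, 4511 bases from Rps9 on the opposite strand, was at 12.4 CPM in granulocyte precursor-like cells and 282 CPM in mature neutrophil-like cells, and its part in the Rps9 count was not tested. Tsen34, the other neighbour of Rps9, and the nearest genes of Rps27 (Nup210l, Rab13) and Rps27a (Mtif2, Clhc1) lay at or under 34.9 CPM in all 5 classes.

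The balance of subunits was lowest in neutrophil-like cells. Core 60S genes gave 1.17 UMIs for each UMI of the core 40S genes over all cells. Most classes lay between 1.09 and 1.28, the latter in fibroblast-like cells. Mature neutrophil-like cells had a ratio of 1.02 (0.994 to 1.10 in the libraries), immature neutrophil-like cells 1.03 (1.01 to 1.06) and intermediate neutrophil-like cells 0.954 (0.934 to 0.980), the lowest of the classes of at least 50 cells. An alternative with Rps9 left out was added after its share had been seen. The mature class was then at 1.21 (1.17 to 1.26), beside 1.22 in granulocyte precursor-like cells. The immature class was at 1.15 (1.14 to 1.17) and the intermediate class at 1.13 (1.09 to 1.15), again the lowest pooled value. Nonclassical monocyte-like cells (72 cells) were near it, at 1.14 (1.05 to 1.19), and stood at 1.09 (1.01 to 1.14) with Rps9. Rps9 is a 40S gene picked for its large part, so leaving it out had to raise the ratio, and the other enlarged 40S genes, Rps27a and Rps27, were not left out.

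**Figure D5:**
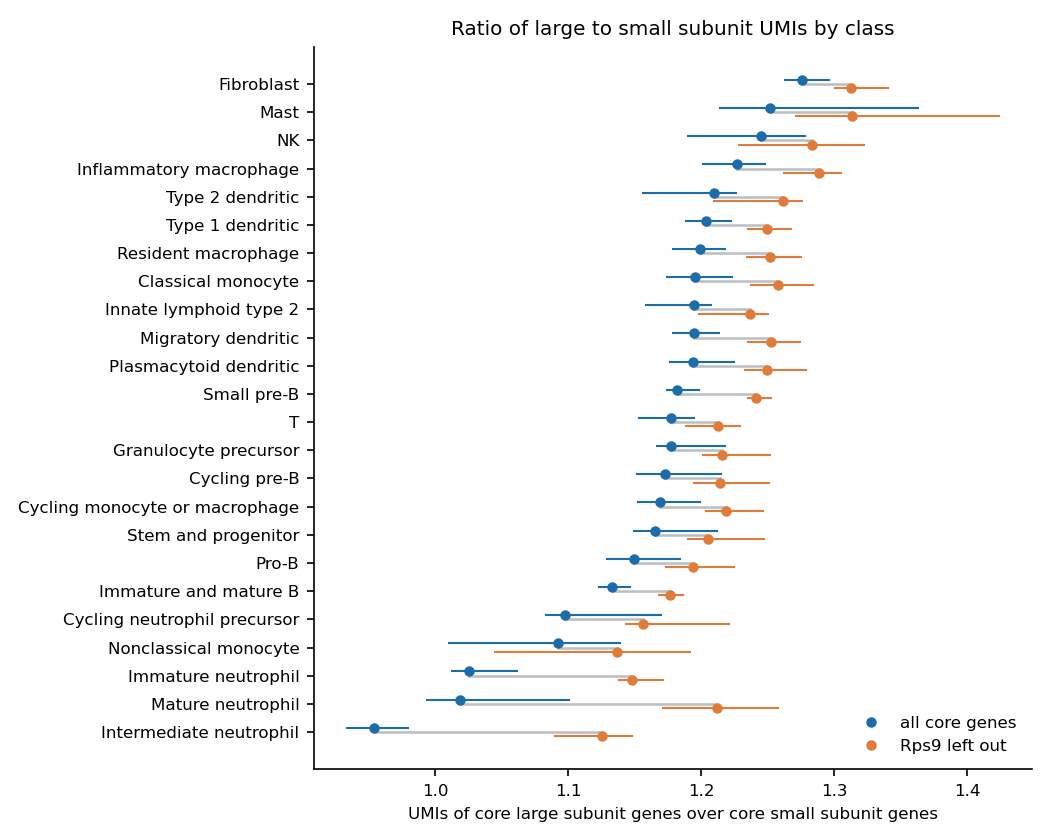
UMIs of core 60S genes over UMIs of core 40S genes (x axis, no unit) by class, with all core genes (blue) and with Rps9 left out (orange); points are pooled values and lines span the libraries. Mature neutrophil-like cells move from 1.02 to 1.21, and intermediate ones are lowest in both, at 0.954 and 1.13.

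Genes of the P stalk, the flexible arm that recruits elongation factors, differed in their proportions between classes. A ribosome carries a single P0 protein (Rplp0) and a pair of each of P1 (Rplp1) and P2 (Rplp2), but their mRNAs do not follow this number. The mean of Rplp1 and Rplp2 was 1.07 times Rplp0 in classical monocyte-like cells, 2.36 times in resident macrophage-like cells and 3.02 times in mast-like cells. In B-like cells it was 1.85 times and in T-like cells 1.71 times. Together the 3 genes took 4.76% of the RP count in resident macrophage-like cells and 2.83% in intermediate neutrophil-like cells.

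In the B lineage the RP share moved down and up again. Cycling pre-B-like cells held 18.2, 17.95, 16.04, 17.9, 17.97 and 15.8% in libraries 1 to 6, and small pre-B-like cells, their resting successors that rearrange light chain genes, held 13.96, 13.9, 12.7, 12.8, 12.3 and 10.8%. Immature and mature B-like cells held 17.1, 15.4, 14.4, 17.3, 15.1 and 14.04%. The first ratio was 0.74 (0.68 to 0.79) and lower in 6 of 6 libraries, and the second 1.19 (1.11 to 1.35) and higher in 6 of 6. RP UMIs per cell were 3.26-fold lower after the first step, and the total count per cell was lower too.

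Members differed in how far they went. In small pre-B-like cells 24 of 83 members were at least 1.5-fold lower, beside 21.6% of all genes, and 0 were higher by this fold, beside 23% of all genes. Rps2 (2072 to 804 CPM), Rpl14 (1389 to 566 CPM), Rps27l (304 to 126 CPM) and Rplp0 (2270 to 1075 CPM) differed most. Rps9 went from 2698 to 2834 CPM and Rps27 from 2455 to 3058 CPM, the latter higher in 6 of 6 libraries. On the way to B-like cells 5 members were at least 1.5-fold higher, beside 11.9% of all genes, namely Rplp1 (1564 to 2730 CPM), Rpl14 (566 to 926 CPM), Rps2 (804 to 1292 CPM), Rps21 (1867 to 2957 CPM) and Rpl36a (652 to 1004 CPM). Of these, Rplp1, Rpl14, Rps2 and Rpl36a were also among the 24 members that had been lower in the step before, which shares its small pre-B-like cells with this one.

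Among mononuclear phagocytes the macrophage-like classes held a lower RP share than the monocyte-like classes. Classical monocyte-like cells held 13.7, 16.6, 12.7, 16.4, 16.8 and 14.7% in libraries 1 to 6. Resident macrophage-like cells, marked by Lyve1, Cd163, Folr2 and Timd4, held 8.20, 8.04, 7.32, 8.16, 8.11 and 7.70%, and inflammatory macrophage-like cells held 8.76, 10.2, 8.06, 10.6, 8.99 and 9.30%. Neither macrophage-like class overlapped with the classical monocyte-like class, at ratios of 0.52 (0.48 to 0.60) and 0.59 (0.54 to 0.65). Total UMIs per cell differed little between classical monocyte-like (14782) and resident macrophage-like cells (13228.5), and RP UMIs per cell were 2.27-fold lower in the latter. Inflammatory macrophage-like cells had more UMIs in all (19787) and 1.32-fold fewer RP UMIs than classical monocyte-like cells. Nonclassical monocyte-like cells (72 cells) held a share of 14.2%. Their median of 979.5 RP UMIs per cell nevertheless lay below those of resident (1018.5) and inflammatory (1756) macrophage-like cells. Cycling monocyte or macrophage-like cells differed less from classical monocyte-like cells (ratio 0.91), with 0 members at least 1.5-fold lower (beside 17.7% of all genes) and 0 higher (beside 11.1%).

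The difference was spread over nearly the whole family. In resident macrophage-like cells 75 of 83 members were at least 1.5-fold lower than in classical monocyte-like cells, beside 15.7% of all genes, and 0 were higher, beside 25.1%. In inflammatory macrophage-like cells 69 of 83 were lower, beside 9.82% of all genes. Rplp0 differed most, from 2255 CPM in the monocyte-like class to 664 CPM in the resident and 981 CPM in the inflammatory class. Rpl28 (2493 to 925 CPM), Rps26 (2175 to 809 CPM), Rpl10a (1428 to 566 CPM) and Rpl36al (955 to 384 CPM) came next in the resident class. Smaller differences were in Rps29 (4639 to 3469 CPM) and Rplp1 (2624 to 1961 CPM). Rpl7l1, a nucleolar relative of Rpl7 (47.9 to 51.1 CPM), and Rps19bp1 (26.2 to 26.8 CPM) lay near their monocyte-like level.

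Among lymphocytes, T-like cells held a higher share than NK-like cells in 6 of 6 libraries (ratio 1.21, 1.07 to 1.35) and than B-like cells in 6 of 6 (ratio 1.36, 1.17 to 1.6). Antibody-secreting-like cells, known for heavy protein output, held 8.68% in 46 cells, and in both libraries with at least 10 of them the share was lower than in B-like cells. Their RP count per cell was nevertheless 2.29-fold higher (2185 against 954 UMIs), since they carried 5.57-fold more UMIs in all.

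The paralogs did not all follow the family. Rps27l, a p53 target related to Rps27, stood at 44.8 UMIs per 100 of Rps27 in migratory dendritic-like cells, 29.8 in granulocyte precursor-like cells, 4.21 in mature neutrophil-like cells and 2.46 in B-like cells. Its share of RP UMIs had the widest span of members above 5 CPM, from 0.0444% in type 2 innate lymphoid-like cells to 0.781% in migratory dendritic-like cells. Rpl36al was at 33.6 UMIs per 100 of Rpl36a in stem and progenitor-like cells, 60.2 in granulocyte precursor-like cells and 111 in classical monocyte-like cells, without overlap of the library ranges (31.1 to 36.9, 49.4 to 69.4 and 98.6 to 124). From stem and progenitor-like to granulocyte precursor-like cells, Rpl36al (686 to 1275 CPM), Rps27l (349 to 570 CPM) and Rps19bp1 (39.6 to 61.2 CPM) were the 3 members at least 1.5-fold higher, beside 17.7% of all genes, and 0 were lower, beside 26.4%.

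Rpl22l1 was at 39.1 UMIs per 100 of Rpl22 in stem and progenitor-like cells and at 26 in classical monocyte-like cells. Rps27rt stayed between 2.85 and 4.54 per 100 of Rps27 in classes of at least 50 cells, and Rpl6l between 0.622 and 1.33 per 100 of Rpl6. The end words of Rpl6l are shared with Rpl6 in full and those of Rps27rt with Rps27 to 89.3%. Rpl39l, known from testis, had 13 UMIs in mature neutrophil-like cells and 1 in stem and progenitor-like cells, which is too few to compare. Rpl3l, known from striated muscle, had 329 UMIs beside 1010 of Rpl3 in mature neutrophil-like cells and 26 beside 57427 in granulocyte precursor-like cells, with the proximity to Msrb1 given above.

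The narrowest spans of share over classes were in Rpl18 (0.940 to 1.22% of RP UMIs), Rpl29, Rps21, Rpl11 and Rpl27a, with highest to lowest ratios of 1.30 to 1.45. Rpl11 and Rpl5, which bind MDM2 when ribosome assembly is disturbed, differed in this. Rpl11 ran from 0.866 to 1.24%, and Rpl5 from 0.322% in intermediate neutrophil-like cells to 0.866% in type 2 innate lymphoid-like cells. Rps6, the target of S6 kinase, ran from 0.639 to 1.07%, and Rps14 and Rps19, both known from inherited or acquired anaemias, from 1.21 to 1.84% and from 0.546 to 2.36%. Rpl22 ran from 0.388 to 0.931%, Rpl13a from 0.836 to 1.41%, Rps3 from 0.868 to 1.36%, Rpl10 from 0.681 to 1.46% and Rpl38 from 1.08 to 2.01%. For Rps19 the ends were mature neutrophil-like and migratory dendritic-like cells.

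Other genes of the translation machinery went with the members in some comparisons only. From granulocyte precursor-like to cycling neutrophil precursor-like cells all 6 elongation factor genes were at least 1.5-fold lower (Eef1a1 from 5069 to 1148 CPM), as were 18 of 18 other genes with known or proposed TOP mRNAs (Npm1 from 1571 to 145 CPM, Tpt1 from 3723 to 2202 CPM). Of the ribosome biogenesis genes 23 of 23 that passed 10 CPM were lower, with a median of -2.87 on the log2 scale, beyond that of the members; Gnl3 went from 109 to 4.72 CPM and Fbl, the rRNA methylase fibrillarin, from 184 to 14.7 CPM. Mitochondrial ribosomal protein genes were lower in 69 of 73, genes of initiation and mTORC1 control in 11 of 15 and genes of ribosome rescue and turnover in 7 of 9. Beside these stands the 50.3% of all genes given above.

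In resident macrophage-like cells most of the other TOP genes were lower, whereas the biogenesis genes were mixed. From classical monocyte-like to resident macrophage-like cells 13 of 18 other TOP genes were at least 1.5-fold lower (Rpsa from 2851 to 891 CPM). Rpsa is a gene of the ribosome that the name rule missed, so this list does not lie wholly outside the ribosome. Of the elongation factor genes 2 of 6 were that much lower (Eef1b2 from 741 to 312 CPM), while Pabpc1 stood at 531 and 482 CPM. Of 22 ribosome biogenesis genes 2 were lower and 8 higher, beside 15.7% and 25.1% of all genes. Among the 8 were Ncl, the nucleolin gene (190 to 362 CPM), and Gnl3 (21.4 to 73.5 CPM). Of 15 genes of initiation and mTORC1 control 1 was lower and 4 higher, near the 15.7% and 25.1% of all genes, and Myc went from 4.35 to 27.6 CPM. Mitochondrial ribosomal protein genes were lower in 21 of 69 and higher in 2. The members' median was -0.91 and that of the biogenesis genes 0.36 on the log2 scale, beside 0.09 for all 7795 genes. From classical monocyte-like to inflammatory macrophage-like cells, 1 of 21 biogenesis genes was lower and 1 higher, with a median of 0.13.

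In the B lineage the biogenesis genes had the same directions as the members. In small pre-B-like cells 16 of 23 were at least 1.5-fold lower and 0 higher, and in B-like cells 12 of 24 were higher and 0 lower. Elongation factor genes were lower in 4 of 6 in the first step, and 0 of 6 passed the fold in the second. Mitochondrial ribosomal protein genes were lower in 42 of 75 in the first step and in 7 of 74 in the second, with 0 higher in both. Of all genes, 21.6% were lower in the first step and 12.5% in the second, where the mitochondrial count was thus not above the background.

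Genes outside the name rule with the most similar pattern over the 24 classes were sought. Their log2 CPM was set against the log2 RP share by Pearson correlation, and the classes share libraries and differ in depth. Gnb2l1 had the highest value (r = 0.991), and others among the 10 highest were Wdr89 (0.988), Eef1b2 (0.978), Gm11808 (0.971), Rpsa (0.971), Naca (0.970), Eef1d (0.970), Eif3m (0.969) and Eef1a1 (0.969). Of 5978 other genes above 20 CPM, 228 had an r above 0.9, as did 76 of the 85 members. The members make up the RP share itself, so their r was partly built in and is not comparable with that of the other genes. Gnb2l1 and Rpsa are genes of the ribosome that the name rule missed, and Wdr89 shares 35 of the 31-base words with the end of Rplp2. The members least like the family were Rpl3l (-0.42), Rpl39l (-0.20), Rps27l (0.74), Rps9 (0.78) and Rps27rt (0.79).

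The libraries differed in RP share by less than the classes did, and some single members differed more between libraries than the RP share did. With each library given the same mix of the 19 classes that all 6 held, the RP shares of libraries 1 to 6 were 11.27, 11.53, 10.46, 11.36, 11.41 and 10.44%, and library 2 thus lay closer to the others than with its own mix of cells. Library 6 was above the pooled value in 2 of 19 classes and library 2 in 15 of 19. Within the RP pool, 6 of 83 members above 5 CPM differed by at least 1.5-fold between their highest and lowest library in the median over classes, where the median member differed by 1.14-fold. Rpl15 spanned 2.15-fold, Rpl27 1.94-fold, Rps27rt 1.82-fold, Rpl35 1.72-fold, Rps27 1.61-fold and Rpl23a 1.55-fold.

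The direction of these differences was then counted over the classes. Rpl15 was higher in library 3 than in library 5 in 19 of 19 classes, Rpl27 higher in library 3 than in library 2 in 19 of 19, and Rps27 higher in library 1 than in library 6 in 19 of 19. Each pair of libraries was picked by the median over these same classes, so high counts were partly built in. Members with little spread had them too, such as Rpl34 (1.08-fold, also 19 of 19). Rps29 (1.497-fold) and Rps28 (1.43-fold) had the same highest and lowest library as Rps27. In granulocyte precursor-like cells Rps27 stood at 2849, 2633, 2314, 2288, 1837 and 1584 CPM in libraries 1 to 6, and in mature neutrophil-like cells at 1215, 1091, 983, 1028, 891 and 731 CPM, so that libraries 5 and 6 were lowest in both. The libraries and members named here were picked for their spread, which is a description, and treatment, animal and library preparation cannot be told apart in it.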

How the data were processed

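Libraries of CD45+ synovial cells from 6 samples (2 PBS, 4 PEPITEM) were made with a Chromium 3′ kit (version 3.1). The authors aligned reads to mm10 with Cell Ranger, removed ambient RNA with SoupX and doublets with DoubletFinder, filtered cells with Seurat, and deposited whole UMI counts, not scaled for depth, for 20394 genes and 32953 cells. No doublets were called again. Zeros written in the table made up 1.94% of the members' entries and 1.68% of all entries.

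Cells were classed by counts of marker genes per cell (at most 1 of 4 cycle genes for resting classes, at least 3 for cycling ones, cuts of 5 and 30 granule gene UMIs per 1000). The cuts were set after the marker values had been seen and without use of the members. UMIs were summed over the cells of a class. A member differed between classes where log2(CPM + 1) differed by at least 1.5-fold, among genes with a mean of at least 10 CPM. Because the table is a single pooled sample with libraries of unknown treatment, no test was run, no p-value or SD is given, and planned treatment comparisons were left out. A library needed 10 cells for a value of its own. Intervals are exact binomial 95% intervals and cover counting error only.

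Members, gene lists and comparisons were chosen with earlier results of these data known. Genes named were the 10 highest members, paralogs, stalk genes, members with roles of their own, the 10 widest and 5 narrowest in share, those against the median direction and the 10 outside genes with the highest correlation; the members of the library comparison, the neighbours and the members at the ends of each comparison were picked after their values were seen. Alternatives were a stricter gate, Leiden clusters made without RP genes (scanpy 1.11.5, igraph 0.11.9), other totals, thinning to 2000 UMIs, medians, core genes alone, another pseudocount, no minimum, and each library left out. The fold step was tested on simulated counts. Scripts ran in Python 3.11.15 (pandas 2.3.3, numpy 2.4.6, scipy 1.17.1), with plots by matplotlib 3.10.9. Annotation was GENCODE M21 on GRCm38, and starts came from RefSeq, which held 64 of the 85 members. Members without one included Rpl3, Rpl6l, Rpl7, Rpl8, Rpl17, Rpl21, Rpl23a, Rpl29, Rpl30, Rpl32, Rpl36, Rplp1, Rps14, Rps20, Rps27a and Rps29. Some genes are not reported here.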

Additional observations from a re-analysis of the deposited data

Results flagged for a closer look

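Counts outside the main comparisons were present in 2 places. The 15 symbols with -ps that the rule leaves out held 73820 UMIs. Some members share their end words with such symbols, as Rpl10 does with Rpl10-ps3 (100%) and Rps12 with Rps12-ps3 (90.4%). Whether these UMIs came from the members was not tested. Cells in no class or in several classes held 12.7% RP UMIs. Neither was used in the comparisons of classes, and neither was set beside a control sample.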

How the results depend on the processing

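No paired analysis was possible because the cells are not tied to samples, so the replicate numbers of the labels match no column. Of 187 values of 21 ratios between classes under other settings, 3 reversed: stem and progenitor to granulocyte precursor with Leiden clusters (0.766), and pro-B to B by median over cells (1.06) and after thinning (1.07). With 1 library left out, 0 of 126 reversed. The Leiden cluster named for granulocyte precursors held that gate in 50.6% of its gated cells, so it was mixed. It also enters the Leiden value of the mature neutrophil to granulocyte precursor ratio given below. The causes of the reversals were not tested.

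The overall RP share was 11.4% with core genes alone, 12.1% with ribosome genes outside the name rule added, among them Rpsa, Fau and Gnb2l1, 11.2% as the median library and 9.17% as the median cell (11.2 to 11.6% with 1 library left out). Under the stricter gate, Leiden clusters, totals without markers, medians over cells, medians over libraries and thinning, in this order, the mature to immature neutrophil ratio was 0.999, 0.833, 0.667, 0.982, 0.967 and 0.989 (0.920 to 0.967 with 1 library left out). The resident macrophage to classical monocyte ratio was 0.471, 0.514, 0.525, 0.494, 0.511 and 0.534, and 0.518 without mitochondrial genes (0.504 to 0.530). The mature neutrophil to granulocyte precursor ratio was 0.100, 0.122, 0.119, 0.0871, 0.0978 and 0.0982, and 0.0962 without mitochondrial genes and 0.0992 with core genes alone (0.0969 to 0.100). The small to cycling pre-B ratio was 0.746 with Leiden clusters, 0.739, 0.874, 0.741 and 0.827 under the settings that follow (0.717 to 0.759). Its value under the stricter gate is not listed here and was not reversed.

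In mature against immature neutrophils 21 members were lower and 4 higher (16 to 24 and 4 to 4 with 1 library left out). Without markers in the totals they were 56 and 2, where the share of all genes was not counted. In resident macrophages 0 members were higher and 75 lower than in classical monocytes (0 to 0 and 73 to 75 with 1 library left out), and with no minimum level 1 was higher. The 60S to 40S ratio of mature neutrophils was 1.02 (1.01 to 1.03 with 1 library left out), and 1.21 without Rps9, and the Rps9 share was 7.52 to 8.08% with 1 library left out. Depth limits the neutrophil classes, which have about 101 to 273 RP UMIs per cell. Remaining ambient RNA, which SoupX lowers, was not measured again.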
